A study of Ostreococcus tauri with 30 samples.

Results

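Heme, coenzyme A and vitamin synthesis in the marine green picoalga Ostreococcus tauri was followed through 8 KEGG modules, named sets of enzyme families that together make up a pathway. They were taken by module identifier from a deposited table of 236 modules. Of 9 identifiers listed, 8 were in the table, and the ninth, M00140, is not used here. The modules are synthesis of pantothenate (M00119), of coenzyme A from pantothenate (M00120), of heme from glutamate (M00121), of NAD from aspartate (M00115), of riboflavin and its nucleotides FMN and FAD (M00125), of tetrahydrofolate (M00126), of thiamine phosphates (M00127) and of biotin (M00123). Polyadenylated RNA of strain RCC745, grown in liquid culture under a light-dark cycle, was sequenced from 10 groups of 3 libraries each. The groups are cultures with higher copper and cultures with lower copper, each sampled at 1, 4 and 12 h, and control cultures without added copper at 0, 1, 4 and 12 h. All cultures had the same seawater medium with a vitamin mix of the f/2 type, which supplies thiamine, biotin and cobalamin. Sample titles state 250 and 25 µM copper where the treatment protocol states 2 and 0.4 µM, so only the order of both levels is used here. The labels do not say that replicates were separate cultures, so p-values measure only how far these libraries differ, possibly for technical reasons, and they do not give the hour of the light cycle at sampling.

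Enzymes cannot work without these small molecules. Pantothenate, made from a valine precursor and a product of aspartate, is built into coenzyme A, the carrier of acyl groups in fatty acid synthesis and the citric acid cycle. Heme shares its path up to protoporphyrin IX with chlorophyll and ends in the cytochromes of photosynthesis and respiration. NAD and the flavins carry electrons, tetrahydrofolate carries one-carbon units, thiamine diphosphate serves decarboxylases and transketolase, and biotin serves carboxylases such as acetyl-CoA carboxylase. Many marine picoalgae take up some of these vitamins instead of making them.

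Module counts per library ran from 27534827 to 62565779, with a median of 46401373.5. Levels are counts per 1000000 module counts (CPM), scaled between libraries with TMM factors. A family can count in several modules and the lengths of the families are not given, so levels are compared between groups and not between modules. Control replicate 3 at 1 h and control replicate 3 at 4 h carry labels in doubt. Their module counts were 6.06 and 20.1 times the gene counts of the same label, against 9.89 to 12.2 times in the other 28 libraries. Paired with the gene total of the other one, they came to 11.03 and 11.01 times. Several results at 1 and 4 h are therefore also given with both left out. Lower copper 12 h replicate 1 and higher copper 1 h replicate 1 lay farthest from the other libraries of their groups, at a root mean square log2 distance over all modules of 0.829 and 0.774, against a median of 0.399 over all 30 libraries.

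Pantothenate synthesis (M00119) was the 1 module of the 8 whose transcript level fell under copper. It fell at 4 and 12 h after the higher addition, by 0.78 ± 0.17 and 0.56 ± 0.17 on the log2 scale (SE; edgeR quasi-likelihood test with Benjamini-Hochberg adjustment over all modules, adjusted p = 0.0034 and 0.027). These are levels of 0.584 and 0.680 times the control of the same time. Of all 236 modules, 8.47% were called at 4 h and 16.5% at 12 h, and 5.08% and 7.63% were called as falls. Because whole cultures were measured, less transcript in every cell and fewer cells with the transcript cannot be told apart. Coenzyme A synthesis (M00120), the next steps of the same route, was not called in any comparison.

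At 4 h the 3 libraries with higher copper held 373, 412 and 291 CPM of pantothenate synthesis, and the 3 controls held 629, 601 and 613 CPM. The groups did not overlap, as for 34.3% of all modules, and the highest value under copper was well below the lowest control. The means were 359 ± 62.2 CPM with higher copper and 614 ± 13.7 CPM in controls (SD, n = 3 each). The call held in all 30 fits that left out 1 library, with adjusted p up to 0.035. With both doubted controls left out M00119 fell by 0.78 ± 0.18 (edgeR adjusted p = 0.0087), and with their labels exchanged by 0.79 ± 0.17 (adjusted p = 0.0025).

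At 12 h the libraries with higher copper held 502, 461 and 472 CPM of M00119, against 711, 592 and 806 CPM in controls. The groups again did not overlap, as for 36.9% of all modules. The spread lay mostly in the controls, with means of 478 ± 21.3 CPM under higher copper and 703 ± 107 CPM in controls (SD, n = 3 each). Leaving out any of control 12 h replicates 1 and 3 or of higher copper 12 h replicates 2 and 3 lost the call. Without those controls M00119 lay at log2 −0.55 and −0.45 (edgeR adjusted p = 0.057 and 0.13), and without those copper libraries at −0.53 and −0.55 (adjusted p = 0.087 and 0.10).

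At 1 h the libraries with higher copper held 616, 411 and 423 CPM of M00119, against 728, 703 and 626 CPM in controls. Replicate 1 with higher copper stood close to the lowest control, and the other two were far below. The difference of −0.51 ± 0.17 (log2, SE) did not pass adjustment (edgeR adjusted p = 0.10). In this comparison only, same-numbered libraries deviated together with every correlation over 0.1, but the labels do not say that they share a culture. With replicate as a block over all 30 libraries, M00119 fell by 0.52 ± 0.15 (edgeR adjusted p = 0.046). Without higher copper 1 h replicate 1 it fell by 0.71 ± 0.17 (adjusted p = 0.017), without lower copper 12 h replicate 1 by 0.51 ± 0.15 (adjusted p = 0.045), and with both doubted controls left out it lay at −0.58 ± 0.18 (adjusted p = 0.083). The 3 effects of higher copper over time were not told apart: the effect at 4 h minus that at 1 h was −0.27 ± 0.24, and the effect at 12 h minus that at 4 h was 0.22 ± 0.24 (edgeR interaction contrasts, adjusted p = 0.99 and 0.93).

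With lower copper M00119 was not called at any time. It held 588, 719 and 531 CPM at 1 h, 634, 588 and 438 CPM at 4 h, and 787, 556 and 550.0 CPM at 12 h. Each of these groups overlapped its control. The log2 differences were −0.16, −0.15 and −0.16, each ± 0.17 (SE), with approximate 95% intervals that together ran from −0.52 to 0.20, so falls of the size seen with higher copper at 4 h lie outside them. Set directly against lower copper, higher copper lay at −0.63 ± 0.17 at 4 h (edgeR adjusted p = 0.072), −0.40 ± 0.17 at 12 h (adjusted p = 0.21) and −0.34 ± 0.17 at 1 h (adjusted p = 0.91). Between the copper levels the libraries did not overlap at 4 and 12 h, as was so for 25.8% and 14.4% of all modules. DESeq2 called the 4 h difference for M00119 (log2 −0.63 ± 0.17, DESeq2 adjusted p = 0.012). So did edgeR with replicate as a block, and with totals of gene counts and both doubted controls left out (edgeR adjusted p = 0.029 and 0.046). Leaving out lower copper 12 h replicate 1, higher copper 1 h replicate 1 or lower copper 4 h replicate 3 also gave the edgeR call. The call therefore depends on the test, the setting and single libraries.

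Over all times, 8 of the 9 libraries with higher copper and 6 of the 9 with lower copper held less M00119 than the lowest of the 12 controls, at 592 CPM. Lower copper 1 h replicate 1 and lower copper 4 h replicate 2, both at 588 CPM, were only just below it. This count pools times and has no share over all modules beside it, and each lower copper group overlapped the control of its own time. By group mean the order from low to high was higher copper 4 h (359 CPM), higher copper 12 h (478), higher copper 1 h (483), lower copper 4 h (553), lower copper 1 h (613), control 4 h (614), lower copper 12 h (631), control 1 h (686), control 12 h (703) and control 0 h (722). Neighbours in this order differed by less than the larger of their SDs, other than higher copper at 4 and 12 h. Among controls M00119 did not pass the test against 0 h at any time, with log2 differences of −0.07, −0.23 and −0.04 at 1, 4 and 12 h, each ± 0.17 (SE), and of −0.03 and −0.25 at 1 and 4 h, each ± 0.19, with both doubted controls left out.

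The next pathway step gives a comparison that no library scaling can move, chosen after the values were seen and given with no test. The ratio of M00119 counts to M00120 counts in the same library was 0.284, 0.328 and 0.228 with higher copper at 4 h, against 0.620, 0.565 and 0.518 in controls. At 12 h it was 0.502, 0.466 and 0.377 with higher copper, against 0.736, 0.506 and 0.774 in controls. At 1 h it was 0.413, 0.340 and 0.355 with higher copper, against 0.671, 0.635 and 0.502 in controls. All 9 libraries with higher copper lay below all 12 controls, although the nearest pair, 0.5017 and 0.5021, all but touched and included control 1 h replicate 3, whose label is in doubt. With lower copper 5 of 9 libraries lay below every control. The ratio also falls where M00120 rises, and at 4 h M00120 lay 0.24 (log2) above the control with either copper level, not called. With lower copper at 4 h M00119 itself lay at −0.15, also not called. These counts are therefore not counts of falls in M00119, and no share over other pairs of modules was taken.

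**Figure D1:**
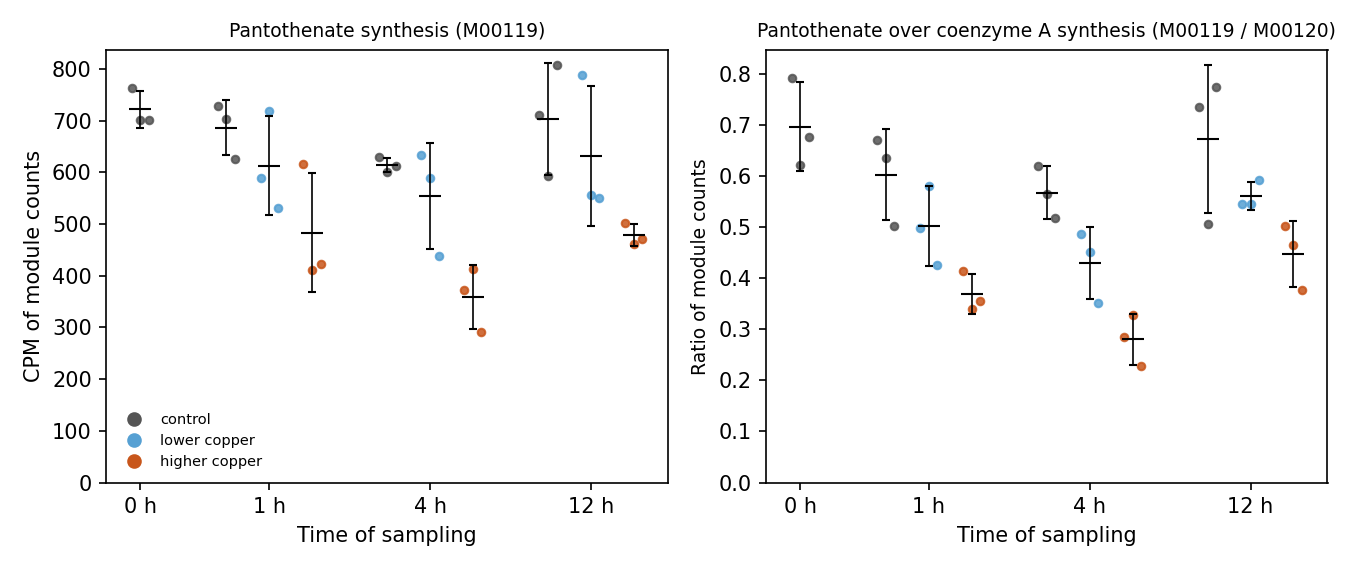
Pantothenate synthesis (M00119) by time of sampling and group, as CPM of module counts (left) and as the ratio to coenzyme A synthesis (M00120) counts in the same library (right). Points are libraries and bars are mean ± SD (n = 3). On the left, higher copper has its lowest group mean at 4 h. Its libraries there, at 291 to 412 CPM, overlap those at 1 h.

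Coenzyme A synthesis itself, the phosphorylation of pantothenate and its joining to cysteine and adenylate, lay above the control at 4 h with both copper levels. M00120 held 1312, 1256 and 1275 CPM with higher copper and 1302, 1301 and 1245 CPM with lower copper, against 1014, 1064 and 1183 CPM in controls. Neither copper group overlapped the controls, which held for 34.3% of all modules with higher and 13.6% with lower copper. The log2 differences were 0.24 ± 0.13 each (SE) and did not pass (edgeR adjusted p = 0.26 for higher and 0.74 for lower copper), and the levels of both copper groups differed by −0.0018 ± 0.13, with an approximate 95% interval from −0.27 to 0.27. With both doubted controls left out, M00120 lay at 0.31 ± 0.14 and 0.28 ± 0.14. At 1 and 12 h it overlapped its control with either copper level, at log2 values from 0.03 to 0.18.

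Heme synthesis (M00121) was not called under copper. At 4 h the libraries with higher copper held 22471, 22279.7 and 26789.7 CPM, against 20966, 22399.6 and 19222 CPM in controls. Replicate 3 with higher copper had the highest level of all 30 libraries, while the other two lay close to the highest control. The log2 differences with higher copper were 0.11, 0.19 and 0.19 at 1, 4 and 12 h, each ± 0.13 (SE; edgeR adjusted p = 0.72, 0.40 and 0.32), and approximate 95% intervals ended at 0.39, 0.47 and 0.47. With both doubted controls left out those of M00121 at 1 and 4 h were 0.15 ± 0.16 and 0.14 ± 0.16. With lower copper the differences lay between −0.04 and 0.06.

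Heme synthesis had its lowest group mean in controls at 0 h. Controls held 14717, 14938 and 16764 CPM at 0 h, 16804, 17832 and 19327 CPM at 1 h, 20966, 22399.6 and 19222 CPM at 4 h, and 18189, 21229 and 17009 CPM at 12 h. Every later control lay above every control at 0 h, and libraries of such control groups did not overlap for 23.7%, 23.7% and 31.8% of all modules at 1, 4 and 12 h. Against 0 h the log2 differences were 0.22, 0.43 and 0.28 at 1, 4 and 12 h, each ± 0.13 (SE; edgeR adjusted p = 0.69, 0.062 and 0.20), so none passed. At 4 h DESeq2 called it (0.42 ± 0.14, DESeq2 adjusted p = 0.039), as did a fit of only the groups compared and a fit without lower copper 12 h replicate 3 (edgeR adjusted p = 0.039 and 0.043). With both doubted controls left out the 4 h difference was 0.47 ± 0.16 (adjusted p = 0.19). Of 7 measured modules of complexes that hold heme or chlorophyll, out of 11 listed, edgeR and DESeq2 called 0 with higher or lower copper against control at any time. With higher copper 2, 1 and 0 of them had an unadjusted p under 0.05 at 1, 4 and 12 h, and with lower copper 0 at each time. Of all 236 modules 38, 61 and 74 did with higher copper, and 20, 16 and 16 with lower copper. Without higher copper 4 h replicate 2 edgeR called 1 of these 7 as a fall at 4 h, and 27 of all 236 modules in either direction. The median log2 difference of these 7 with higher copper was −0.24, −0.19 and 0.07 at 1, 4 and 12 h. In controls against 0 h edgeR and DESeq2 each called 1 of these 7 modules at 4 h and 1 at 12 h, as rises by edgeR. Of all modules, edgeR called 5.08% and 8.47% there.

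The modules of redox coenzymes, NAD (M00115) and riboflavin with its flavin nucleotides (M00125), had their highest group means at 1 h with higher copper. NAD synthesis held 1507, 1806 and 1779 CPM there, against 1481, 1403 and 1503 CPM in controls. Riboflavin synthesis held 1301, 1539 and 1419 CPM, against 1044, 1177 and 1156 CPM in controls. Neither pair of groups overlapped, as for 19.9% of all modules, but for NAD the lowest library with higher copper and the highest control were only a few CPM apart. The log2 differences were 0.21 ± 0.15 for M00115 and 0.33 ± 0.20 for M00125 (SE; edgeR adjusted p = 0.49 and 0.44), and 0.22 ± 0.18 and 0.34 ± 0.24 with both doubted controls left out. At 4 h M00115 lay at −0.05 ± 0.15 and M00125 at 0.25 ± 0.20, and at 12 h at −0.05 ± 0.15 and 0.01 ± 0.20. With lower copper M00115 lay at 0.03, −0.15 and −0.14 and M00125 at 0.18, −0.01 and −0.09 at 1, 4 and 12 h, none called.

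With lower copper at 12 h M00125 held 662, 1135 and 1429 CPM and M00115 held 993, 1347 and 1671 CPM, so replicate 1 was the lowest of its group in both and the lowest of all 30 libraries in both. The same library had the highest level within its group for M00115 and M00125 in 8 of 10 groups, the most among the 28 pairs of members, whose median was 3.5 groups. Their deviations from the group mean lay on the same side in 23 of 30 libraries. This pair was picked after its values were seen, the points share library, depth and scaling, and any families that count in both modules are not given.

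**Figure D2:**
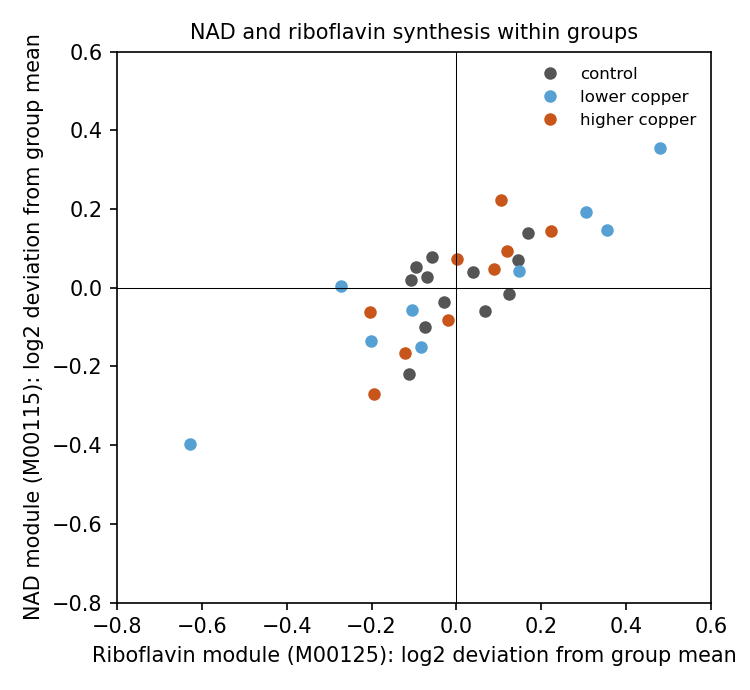
Log2 deviation of each library from its group mean for NAD synthesis (M00115, vertical) against riboflavin synthesis (M00125, horizontal), for all 30 libraries. Both deviations have the same sign in 23 libraries, and lower copper 12 h replicates 1 and 3 are the outermost.

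Tetrahydrofolate synthesis (M00126), which starts from GTP as riboflavin synthesis does, kept close to its controls with higher copper. The log2 differences were −0.05, −0.02 and 0.08 at 1, 4 and 12 h, each ± 0.092 (SE), and approximate 95% intervals stayed between −0.24 and 0.27. With lower copper at 12 h the libraries held 3080.3, 3028 and 3101 CPM, against 2513, 2726 and 2673 CPM in controls. The groups did not overlap, as for 8.05% of all modules, and the difference of 0.22 ± 0.092 did not pass (edgeR adjusted p = 0.46). In controls the level at 0 h, 2955, 3109 and 3364 CPM, was its highest group mean. Against it M00126 lay at −0.23 ± 0.092 at 1 h, −0.08 ± 0.092 at 4 h and −0.25 ± 0.092 at 12 h (edgeR adjusted p = 0.43, 0.90 and 0.085), and at −0.33 ± 0.099 at 1 h with both doubted controls left out (adjusted p = 0.25). DESeq2 called the 12 h difference of M00126 (−0.25 ± 0.090, DESeq2 adjusted p = 0.042), and edgeR called it without higher copper 1 h replicate 1 (adjusted p = 0.025).

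Thiamine synthesis (M00127) had the fewest counts of the 8 modules, 5894 to 20873 per library, and the widest errors. With higher copper it held 276, 356 and 287 CPM at 12 h, against 228, 221 and 158 CPM in controls. The groups did not overlap, as for 36.9% of all modules. The difference was 0.60 ± 0.24 (log2, SE; unadjusted p = 0.022, edgeR adjusted p = 0.099), with an approximate 95% interval from 0.09 to 1.10, so it did not pass. At 4 h the libraries held 248, 357 and 342 CPM with higher copper, against 264, 284 and 211 CPM in controls, and the groups overlapped (0.32 ± 0.24, adjusted p = 0.47, and 0.20 ± 0.28 for M00127 with both doubted controls left out). At 1 h the difference was 0.03 ± 0.24 and the groups overlapped. Lower copper gave −0.08, −0.07 and 0.12 at 1, 4 and 12 h, each ± 0.24 (SE).

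Biotin synthesis (M00123) had the narrowest range of group means. They ran from 1037 CPM in controls at 12 h to 1211 CPM with lower copper at 1 h, a ratio of 1.17, and its libraries from 936 to 1225 CPM. Under copper it lay between −0.07 and 0.02 of the control (log2, each ± 0.081, SE) at both levels and all 3 times. Approximate 95% intervals of these 6 differences stayed between −0.24 and 0.19. Over the other members the ratio of the highest to the lowest group mean was 1.24 for M00126, 1.24 for M00120, 1.30 for M00115, 1.32 for M00125, 1.54 for M00121, 1.56 for M00127 and 2.01 for M00119.

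**Figure D3:**
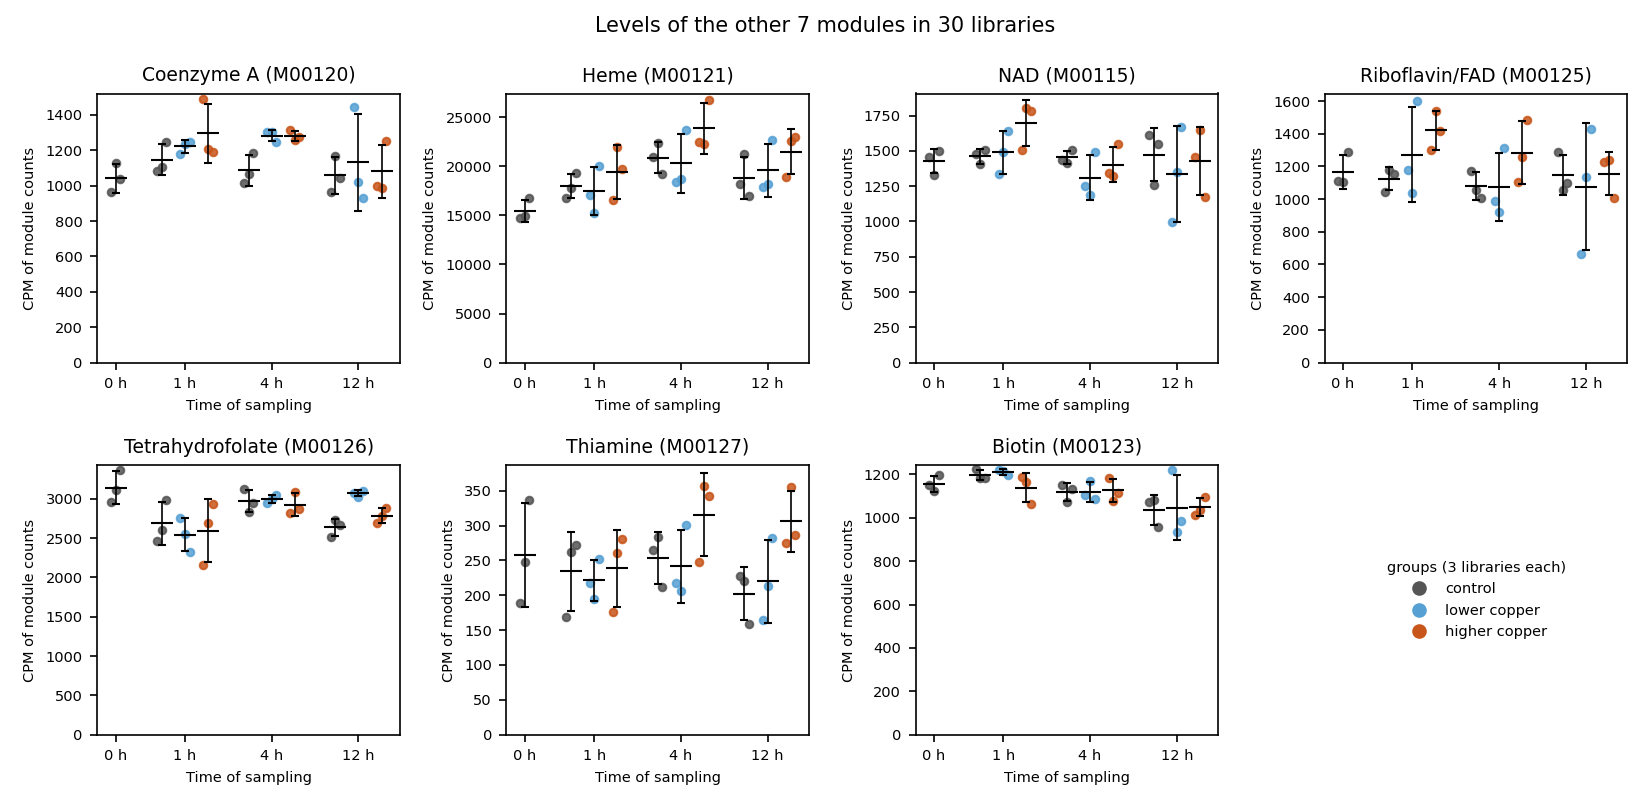
Levels of the other 7 modules, as CPM of module counts, by time of sampling and group in 30 libraries (points), with mean ± SD (n = 3). Heme synthesis was lowest in controls at 0 h (15473 ± 1123 CPM), thiamine synthesis lowest in controls at 12 h (202 ± 38.5 CPM), and the group means of biotin synthesis varied least.

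Counted together, edgeR called 1 of 8 modules at 4 h and 1 of 8 at 12 h with higher copper, pantothenate synthesis both times, a share near that of all modules. At 1 h with higher copper 0 of 8 were called, against 5.08% of all modules. At an unadjusted p under 0.05 there was 1, against 38 of all 236, and DESeq2 called 0, against 15. With lower copper 0 of 8 were called at 1, 4 and 12 h, against 0%, 0% and 0.424% of all modules. There 0, 0 and 1 had an unadjusted p under 0.05, against 20, 16 and 16 of all 236. DESeq2 called 0 of the 8 at each time, against 1, 0 and 4 of all 236. The median log2 difference of the 8 modules with higher copper was 0.07, 0.10 and 0.02 at 1, 4 and 12 h, beside 0.01, 0.02 and −0.00074 over all modules. Groups with higher copper did not overlap the control for 3, 2 and 2 members at these times, against 19.9%, 34.3% and 36.9% of all modules. With lower copper this held for 0, 1 and 1 members, against 14.8%, 13.6% and 8.05%.

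Between higher and lower copper edgeR called 0 of 8 modules at 1, 4 and 12 h, against 0%, 0.847% and 0.847% of all modules. At an unadjusted p under 0.05 there were 0, 1 and 1, against 9, 42 and 42 of all 236. DESeq2 called 0, 1 and 0 of the 8, against 0, 13 and 14 of all 236. Libraries did not overlap for 1, 1 and 2 members, against 5.08%, 25.8% and 14.4% of all modules. In controls against 0 h edgeR called 0 of 8 at 1, 4 and 12 h, against 0.424%, 5.08% and 8.47% of all modules. At an unadjusted p under 0.05 there were 1, 1 and 2, against 20, 34 and 54 of all 236. DESeq2 called 0, 1 and 1 of the 8, against 5, 17 and 31 of all 236. Libraries did not overlap for 1, 2 and 3 members, against 23.7%, 23.7% and 31.8% of all modules. With both doubted controls left out edgeR called 1 of all 236 modules at 4 h against 0 h. Of the 4 contrasts of a copper effect between consecutive times, none was called by edgeR or DESeq2 for any of the 8, or at an unadjusted p under 0.05, against 0% of all modules by edgeR in each. Of all 236 modules, 4 to 15 had an unadjusted p under 0.05 in these contrasts.

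**Figure D4:**
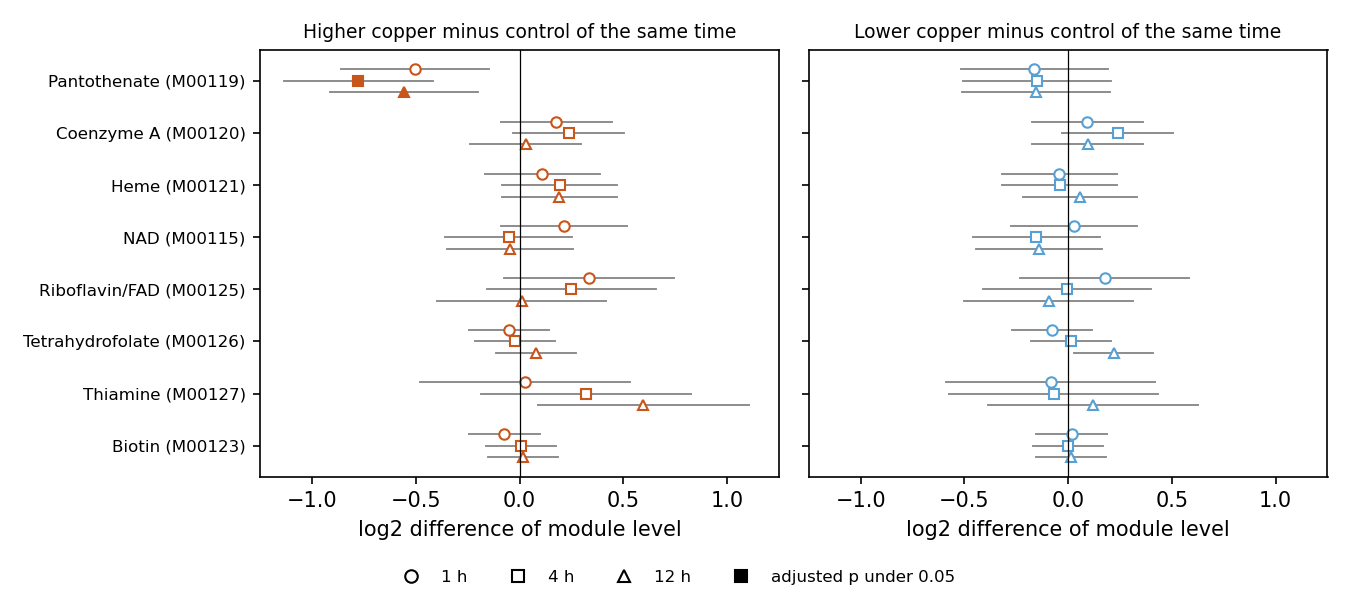
Log2 difference from the control of the same time for the 8 modules, with higher copper (left) and lower copper (right) at 1, 4 and 12 h. Lines are approximate 95% intervals, filled symbols passed at an adjusted p under 0.05, and these are pantothenate synthesis at 4 and 12 h with higher copper (−0.78 and −0.56).

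Other cofactor modules gave 2 falls and no rise with higher copper at 4 h and again at 12 h, where DESeq2 called 2 falls and 1 rise. Of all modules, edgeR called 8.47% at 4 h and 16.5% at 12 h. Of 33 listed identifiers 6 were measured, and glutathione synthesis (M00118), which makes the main soluble thiol, fell by 0.75 ± 0.18 at 4 h and 0.63 ± 0.18 at 12 h (edgeR adjusted p = 0.0051 and 0.016), and at 4 h by 0.83 ± 0.21 with both doubted controls left out (adjusted p = 0.012). The tocopherol module (M00112), for an antioxidant of membranes, fell by 0.49 ± 0.14 and 0.52 ± 0.14 (adjusted p = 0.023 and 0.012), and the other 4 did not pass. The median of the 6 was 0.05 at 4 h and 0.13 at 12 h, above 0 although both calls were falls. With both doubted controls left out M00112 lay at −0.39 ± 0.15 at 4 h (adjusted p = 0.13), and its 4 h call was also lost without higher copper 4 h replicate 1 or 3 or control 4 h replicate 3. At 12 h both calls were lost without higher copper 12 h replicate 3 or control 12 h replicate 3, and that of M00118 without control 12 h replicate 2. At 1 h with higher copper edgeR called 0 of the 6, against 5.08% of all modules. At an unadjusted p under 0.05 there were 5 of the 6, against 38 of all 236 modules. In controls without copper, edgeR called 2 of the 6 as falls at 12 h against 0 h, where it called 8.47% of all modules.

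Of 12 measured modules that make or use substrates of the 8 (13 listed), 3 rose, 1 fell and 8 did not pass with higher copper at 4 h. Their median was 0.06, and 8.47% of all modules were called there. Photorespiration (M00532), which releases one-carbon units for folate, and isoleucine synthesis (M00570), which uses enzymes that also serve valine, rose by 0.68 ± 0.099 and 0.70 ± 0.12 (edgeR adjusted p = 9.7e-05 and 0.00059), and by 0.77 ± 0.12 and 0.86 ± 0.12 with both doubted controls left out. Methionine synthesis (M00017), named after its values were seen, rose by 0.28 ± 0.080 (adjusted p = 0.025), but lay at 0.31 ± 0.10 with both doubted controls left out (adjusted p = 0.080), and its call was also lost without higher copper 4 h replicate 1 or 3 or any control at 4 h. Serine synthesis (M00020), which feeds glycine and one-carbon units, fell by 0.39 ± 0.075 (adjusted p = 0.0012), and by 0.39 ± 0.095 with both doubted controls left out (adjusted p = 0.011). At 12 h 1 rose, M00532, and 11 did not pass, with a median of −0.01, where 16.5% of all modules were called. At 1 h 3 rose and 9 did not pass, where 5.08% of all modules were called. With both doubted controls left out 2 rose, and 0 with their labels exchanged. None rose without control 1 h replicate 1 or 2 or higher copper 1 h replicate 2. With lower copper edgeR called 0 of the 12 at 1, 4 and 12 h, against 0%, 0% and 0.424% of all modules. An unadjusted p under 0.05 was reached by 4, 2 and 2, against 20, 16 and 16 of all 236. DESeq2 called 0, 0 and 1 of the 12, against 1, 0 and 4 of all 236. Without lower copper 12 h replicate 3 edgeR called 1 of the 12 as a fall at 12 h, and 5 of all 236 in either direction. In controls without copper, 3 of the 12 rose and 1 fell at 4 h against 0 h, and 2 rose and 1 fell at 12 h against 0 h. Of all modules, 5.08% and 8.47% were called in these control comparisons. The module of valine and isoleucine synthesis (M00019), named for its shared precursor with pantothenate after its values were seen, lay at 0.06 ± 0.12 at 4 h, 0.07 ± 0.15 with both doubted controls left out, and −0.02 ± 0.12 at 12 h with higher copper (adjusted p = 0.85 at 4 h and 0.94 at 12 h).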

How the data were processed

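RNA was sequenced with a stranded kit for polyadenylated RNA, per the labels' protocols. The deposited module table holds counts per KEGG module: per the series' design text, reads were compared with KEGG by homology. The deposited gene table holds raw counts for 7627 genes and was used for library totals, without a line that names no gene (0.00038% of counts). No source used here names an aligner, counter, strand setting or build. Module counts were fitted in R 4.3.3 with edgeR 4.0.16: TMM, no filter, 1 quasi-likelihood fit of 10 group means over 30 libraries (20 residual degrees of freedom), 16 contrasts, Benjamini-Hochberg adjustment over 236 modules within each, and calls at an adjusted p under 0.05. The SE is the log2 difference over the square root of F, and approximate 95% intervals use it with 20 degrees of freedom. The procedure was tested on simulated data. Alternatives were DESeq2 1.42.0, other scalings, a filter, subsets, a replicate block and leaving out each library. Same-numbered libraries deviated together, with every correlation over 0.1, in 1 of 12 comparisons, higher copper against control at 1 h (r = 0.621, 0.305 and 0.308 across modules). There the block is given beside the result. All 8 modules present are named. Other modules were counted by 3 lists and named where called in a comparison in which a member was called, at most 3 per list and comparison. M00017 and M00019 were named outside this rule, after their values were seen. Members and lists were chosen with earlier results of these data known. No sequence is shown, because the files tie no gene to a module.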

Additional observations from a re-analysis of the deposited data

How the results depend on the processing

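The fall of pantothenate synthesis with higher copper kept its direction in all 39 alternatives, at log2 −0.89 to −0.65 at 4 h, always called, and −0.66 to −0.45 at 12 h, lost in 4 of 30 fits that leave out 1 library. All 4 left out a library of the groups compared, which hold only 3 libraries each, so the 12 h call depends on single libraries. The number of the 8 modules called at 1 h with higher copper was 0, and 1 with the replicate block. Between copper levels at 4 h it was 0, and 1 with DESeq2, with the replicate block, and with gene table totals and both doubted controls left out. In controls at 4 h against 0 h it was 0, and 1 with DESeq2, with only the groups compared and with the replicate block. In controls at 12 h against 0 h it was 0, and 1 with total counts only and with DESeq2. Leaving out 1 library gave 0 to 1 for each of these and for higher copper at 12 h. The cause was not tested. For the other comparisons these counts were the same under every alternative. The block concerns numbers that pair libraries in 1 comparison only: 12 of 36 same-numbered pairs had a correlation over 0.1, and 17 of 30 libraries correlated best with their own number. The background also moved: with higher copper, 0 to 16 of all modules were called at 1 h, 14 to 27 at 4 h and 8 to 44 at 12 h when 1 library was left out, the 0 without control 1 h replicate 1 or 2 or higher copper 1 h replicate 2, and the 8 without higher copper 12 h replicate 3. Between copper levels it was 0 to 7 at 4 h and 1 to 15 at 12 h, the 7 without lower copper 4 h replicate 3 and the 15 without lower copper 12 h replicate 3. In controls it was 1 to 14 at 4 h and 7 to 28 at 12 h, the 1 without control 0 h replicate 1 or 3 or control 4 h replicate 3, and the 7 without control 0 h replicate 3. No member had fewer than 5894 counts in a library. How far counting and the 3 libraries a group each limit the precision was not tested.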
